A study of Mus musculus with 9 samples.

Results

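The 10 genes described here, Trem2, Tyrobp, Plcg2, Inpp5d, Cd33, Apoe, Sorl1, Bin1, Abi3 and Spi1, are mouse counterparts of genes at or near human risk loci for Alzheimer disease that microglia use. They were picked out by gene symbol, with no value of the table in the rule, although earlier results of these data were known when the genes were proposed. Each matched 1 row of the 21212 rows of the expression table. Primary microglia came from the pooled brains of P0-P1 CD-1 mouse litters, were separated on a Percoll gradient and were grown for 5 to 7 days with M-CSF and GM-CSF at 10 ng/ml before an overnight period without serum. All arrays therefore share the strain, the neonatal age and the growth factors, and the cells are a culture model rather than microglia of an aged or diseased brain. The cells then received PBS, lipopolysaccharide (LPS, a bacterial outer membrane component) at 100 ng/ml or interleukin-4 (IL-4) at 20 ng/ml for 4 h, with 3 arrays for each condition. The study used LPS for M1 and IL-4 for M2 skewing, so the comparisons ask how each gene stood after either stimulus against PBS, and how the stimuli differed.

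TREM2 is a surface receptor for lipids and lipoproteins that signals through the adaptor TYROBP (also known as DAP12), whose ITAM motif recruits the kinase SYK, and phospholipase C gamma 2, made by Plcg2, acts downstream. Human CD33 and the phosphatase SHIP1, made by Inpp5d, counter that signal, and APOE is a lipoprotein that TREM2 can bind. SORL1 and BIN1 work in endosomal sorting and membrane bending, ABI3 in actin regulation, and PU.1, made by Spi1, is the transcription factor that defines macrophages and microglia.

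The promoters of Inpp5d and Trem2 are shown because both genes fell with LPS and with IL-4 and because their windows hold GAGGAA, the core of the sequence that PU.1 binds. Each line runs 5′ to 3′ on the gene's own strand, from 250 bases before to 50 bases after the RefSeq gene start, and capitals mark GAGGAA or its reverse complement TTCCTC. The Inpp5d window is chr1:87620062-87620361 and the Trem2 window is chr17:48346151-48346450, both on the plus strand of GRCm38.p6.
Inpp5d: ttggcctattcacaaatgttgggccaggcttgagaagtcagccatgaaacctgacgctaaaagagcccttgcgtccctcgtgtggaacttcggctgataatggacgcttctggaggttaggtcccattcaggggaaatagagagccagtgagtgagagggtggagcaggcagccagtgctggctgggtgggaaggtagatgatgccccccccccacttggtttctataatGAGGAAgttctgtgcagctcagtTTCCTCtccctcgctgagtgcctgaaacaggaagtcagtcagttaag
Trem2: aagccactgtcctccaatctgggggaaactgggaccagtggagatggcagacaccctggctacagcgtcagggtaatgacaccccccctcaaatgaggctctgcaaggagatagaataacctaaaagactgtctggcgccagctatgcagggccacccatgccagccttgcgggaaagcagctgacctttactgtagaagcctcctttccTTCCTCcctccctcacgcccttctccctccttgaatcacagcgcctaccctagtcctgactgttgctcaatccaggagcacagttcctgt
Inpp5d held 2 matches on opposite strands, the first beginning 20 bases before the start and the other just after it, and Trem2 held 1 on the minus strand, 40 bases before the start. Of 32851 mouse promoter windows of this length, 28.3% held GAGGAA on either strand, so these matches are a description of the sequence and not of binding. Searches of both strands covered 9 windows of 6 members, and the promoters of Tyrobp, Spi1, Abi3 and Bin1 were not used here. Cd33 held 1 match, at 226 bases before its start, the 3 Apoe windows held 2, 0 and 1, and no match lay in the windows of Plcg2 and Sorl1. A STAT6-type motif (TTC and GAA with any 4 bases between them), present in 6.95% of all windows, occurred in Inpp5d at 124 bases and in Plcg2 at 192 bases before the start. A kappa B-type motif (GGGA and TTTCC with any 1 base between them), present in 0.411% of all windows, was not in these 9.

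The values are log2 expression after RMA, the array summary method, with 9 arrays of all conditions in 1 table that ran from 2.05 to 13.06. Arrays have no read depth, and the number of arrays limits the precision. The labels do not say whether the 3 arrays of a condition came from separate preparations, so a p-value here covers the variation from array to array, and part of that may be technical. The cells carried microglial signal: 15 of 17 microglia and macrophage markers had a row, and their median log2 value on an array was 10.46 to 10.86 with PBS, 10.34 to 10.59 with LPS and 10.47 to 10.59 with IL-4. These medians hide changes of single markers, since limma called 9 of the 15 lower and 2 higher with LPS against PBS, with a median log2 difference of -0.39, and 1 higher with IL-4. Astrocyte markers were also bright, at medians of 10.31 to 10.38, 9.92 to 10.06 and 10.32 to 10.34. Replicate 3 of PBS and of LPS stood apart from replicates 1 and 2. Motile cilia genes (22 measured), which ependymal cells express, had array medians of 6.75, 6.85 and 8.64 in PBS replicates 1 to 3, of 6.62, 6.60 and 8.25 in LPS and of 7.85, 8.21 and 8.11 in IL-4. All 3 IL-4 arrays thus lay nearer to replicate 3 of PBS and LPS than to replicates 1 and 2. In comparisons with IL-4, the stimulus and this content therefore cannot be fully told apart. Oligodendrocyte lineage markers (11 measured) were 0.94 higher in PBS replicate 3 and 0.81 higher in LPS replicate 3 than in the mean of the other arrays of the condition, as medians over the list. For astrocyte markers (13 measured) these values were 0.62 and 0.55, a shift that the array medians of that list hide in PBS. In such bulk RNA, fewer cells of a type and less RNA per cell cannot be told apart. Where leaving out 1 of these arrays ends or makes a call of a member, the value without it is given.

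After 4 h of LPS, transcripts for the inhibitory phosphatase SHIP1 and the actin regulator ABI3 were lower by 5.39-fold and 3.69-fold, TREM2 by 1.75-fold, and SORL1, BIN1 and TYROBP by smaller amounts, while the PU.1 transcript was higher by 0.26 on the log2 scale. After IL-4 only Trem2 and Inpp5d passed the test, at 1.39-fold and 1.27-fold. Cd33 was 1.81-fold higher after LPS than after IL-4. With the mean of the cilia genes in the limma fit, this difference became 0.28 on the log2 scale (adjusted p = 0.617). With limma at an adjusted p under 0.05, LPS changed 7 of the 10 members against PBS, 6 lower and 1 higher, where 37.8% of all rows were called in either direction, 22.4% lower and 15.4% higher. With IL-4, 2 of 10 were called, both lower, where the share of all rows was 5.40% (2.05% lower and 3.35% higher), and 6 of 10 had an unadjusted p under 0.05. Between LPS and IL-4, 6 of 10 were called, 5 lower and 1 higher with LPS, where the share was 46.9% (25.9% lower and 21.0% higher). These shares count dim rows, whereas no member was among the 7070 dimmest rows. Without those, 14142 rows remained, of which LPS against PBS called 2799 higher and 4806 lower, beside 8 of 10 members. IL-4 against PBS called 843 and 502, beside 3 members, and LPS against IL-4 called 3036 and 5419, beside 6 members. The shares of all rows are therefore not matched to the level of the members. The values of the groups did not overlap for 6 lower and 1 higher member with LPS against PBS, beside 25.4% and 20.4% of all rows. They did not overlap for 7 lower and 0 higher members with IL-4 against PBS, beside 14.3% and 14.7%, and for 6 lower and 2 higher members with LPS against IL-4, beside 31.5% and 28.4%. The falls of members with LPS stood beside falls of 9 of 15 measured microglial markers, among them Cx3cr1 (-1.80), P2ry12 (-0.85) and Csf1r (-0.76). The 2 markers called higher were Adgre1 (0.33) and Ptprc, which read 10.46, 10.51 and 10.26 with PBS and 11.23, 11.26 and 10.90 with LPS. The part of these marker changes in the result was not tested. The median log2 difference of the members was -0.52 for LPS against PBS, -0.27 for IL-4 against PBS and -0.30 for LPS against IL-4, beside medians of 0.01, -0.02 and 0.03 over all rows. Both comparisons with PBS share the same 3 PBS arrays.

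**Figure D1:**
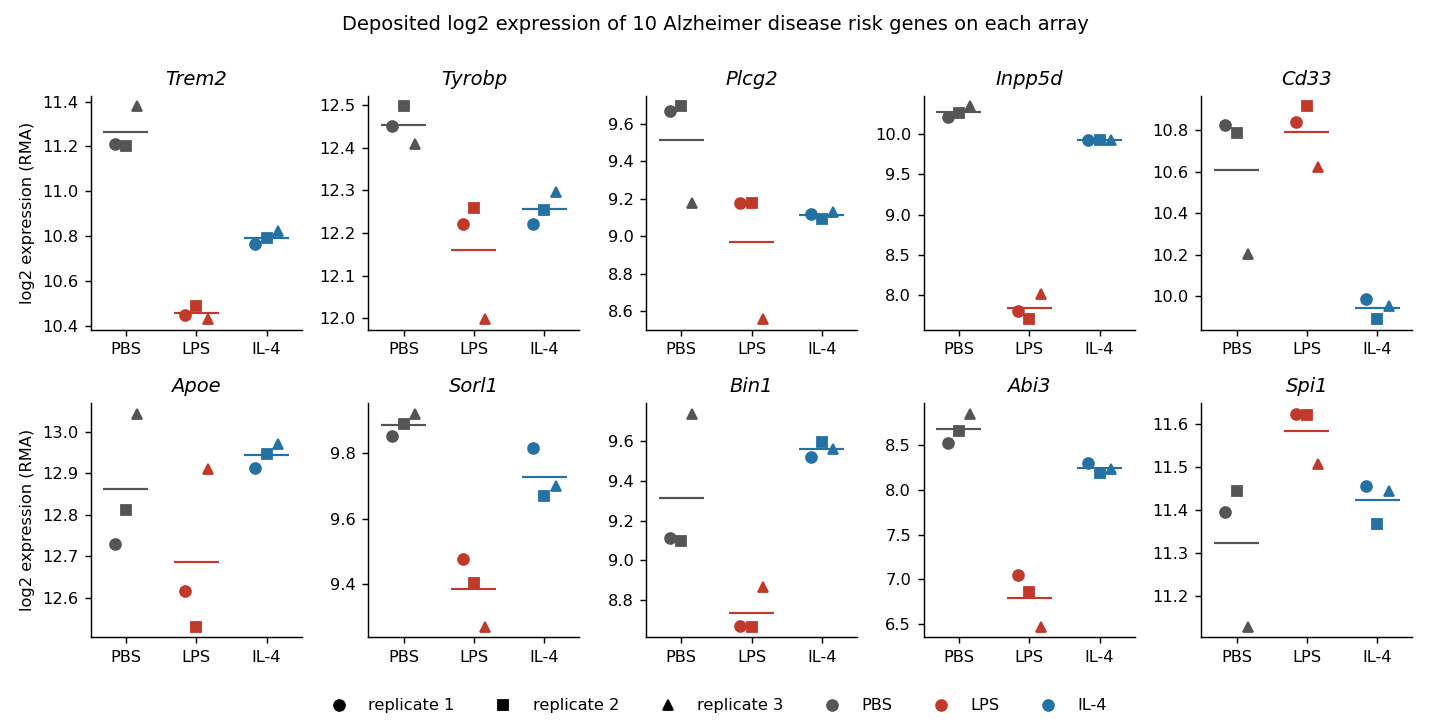
Log2 expression (RMA) of each member on each of the 9 arrays, by condition, with a line at the mean of 3 arrays. Shapes stand for replicates, and the vertical axes differ between panels and do not start at 0. The LPS arrays of Inpp5d (7.71 to 8.01) and Abi3 (6.47 to 7.05) lie below all other arrays of these genes, and PBS replicate 3 lies apart from the other PBS arrays for Cd33, Plcg2, Bin1 and Spi1.

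**Figure D2:**
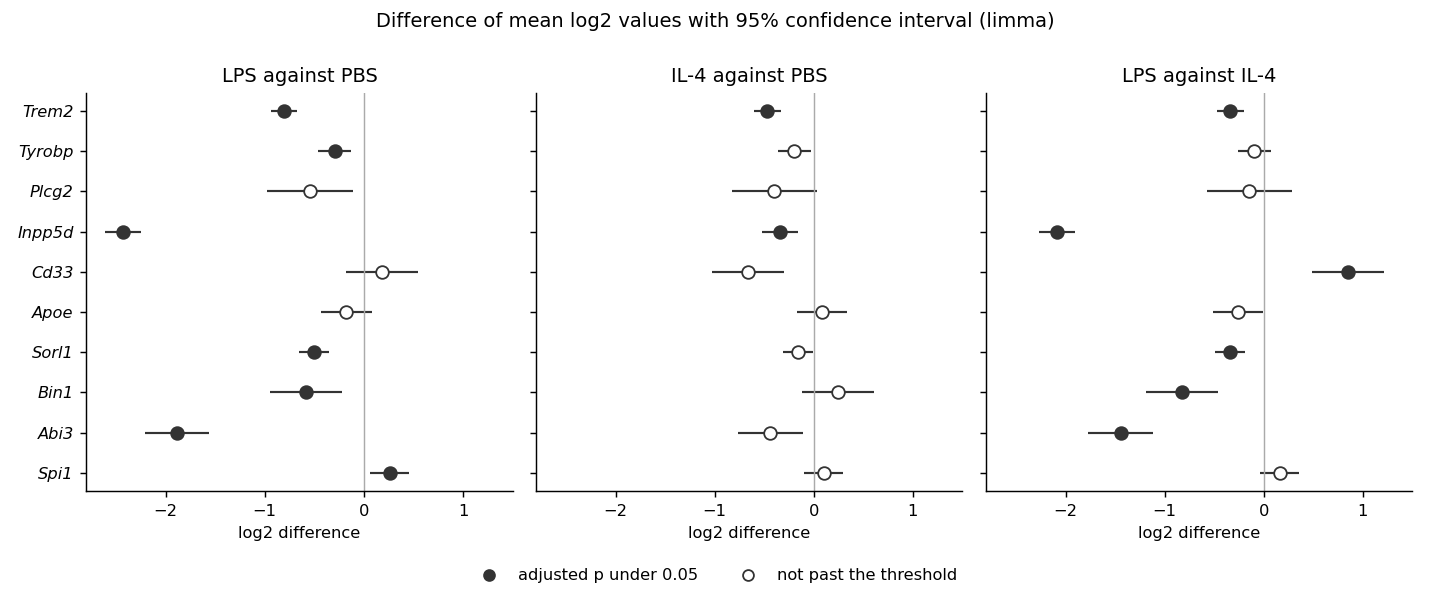
Difference of mean log2 values with its 95% confidence interval from limma (horizontal axis) for each member in 3 comparisons, where filled points passed an adjusted p under 0.05. LPS against PBS has 7 filled points, 6 of them left of 0, IL-4 against PBS has 2, and LPS against IL-4 has 6.

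The receptor gene Trem2 read 11.21, 11.20 and 11.38 on the log2 scale on PBS replicates 1 to 3, 10.45, 10.49 and 10.43 on the LPS arrays, and 10.77, 10.79 and 10.82 on the IL-4 arrays. The groups did not overlap: every PBS array was above every IL-4 array, and every IL-4 array above every LPS array. LPS lowered Trem2 by a log2 difference of -0.81 ± 0.0586 (SE, adjusted p = 1.18e-05, limma), and IL-4 by -0.47 ± 0.0586 (adjusted p = 0.00302). The LPS value was below the IL-4 value by -0.34 ± 0.0586 (adjusted p = 0.00181). Trem2 thus had the order PBS, IL-4, LPS, with each neighbouring step past the threshold. The last step lost its call, at an adjusted p of 0.1997, when the mean of the cilia genes entered the fit.

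Tyrobp, the adaptor through which TREM2 signals, read 12.45, 12.50 and 12.41 with PBS, 12.22, 12.26 and 11.998 with LPS and 12.22, 12.25 and 12.30 with IL-4. Both stimulated groups lay below all PBS arrays and overlapped each other. The LPS difference was -0.29 ± 0.0728 (SE, adjusted p = 0.0124, limma), and it became -0.18 with an adjusted p of 0.119 when each array's median was subtracted. The IL-4 difference was -0.20 ± 0.0728, with a 95% interval from -0.36 to -0.03 and an adjusted p of 0.177. LPS and IL-4 differed by -0.10 (adjusted p = 0.293, 95% interval -0.26 to 0.07).

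Around this receptor pair, 25 of 27 listed genes of ITAM signalling had a row, and with LPS 8 were higher and 7 lower, with a median log2 difference of 0.08 beside 0.01 over all rows. Trem1, a related receptor that also pairs with TYROBP and amplifies inflammatory responses, rose by 3.29 ± 0.293 on the log2 scale (SE, adjusted p = 3.92e-05), in the direction opposite to Trem2. Malt1, the paracaspase that acts with CARD9 and BCL10, rose by 2.57, whereas Card9 itself fell by 1.55 and Lat2, an adaptor for immune receptors, fell by 1.34. Syk and Adam10, and the genes given below as the remaining calls of a list, lie outside the rule for named genes and were chosen after their values were seen. Syk, the kinase that binds the TYROBP motif, was higher by 0.82 ± 0.157 (adjusted p = 0.00328), and Adam10, a protease that can shed TREM2 from the surface, was lower by -0.50 ± 0.0882 (adjusted p = 0.00217). Adam17, the other such protease of the list, was higher by 0.34 ± 0.107 (adjusted p = 0.0345). With IL-4, 3 of these 25 genes passed, and the largest falls were in Pik3ap1 (-0.47), an adaptor for phosphoinositide 3-kinase, and Vav1 (-0.39), a guanine nucleotide exchange factor, with Pik3cd (-0.29) as the remaining call. The list thus held calls in both directions with LPS, 32% of its measured genes higher and 28% lower, beside 15.4% and 22.4% of all rows. All rows include dim ones, here and for the lists below, and no list was matched to rows of like level.

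Plcg2, the phospholipase that splits the membrane lipid PIP2 downstream of SYK, read 9.67, 9.69 and 9.18 with PBS, 9.18, 9.18 and 8.56 with LPS and 9.12, 9.09 and 9.13 with IL-4. PBS replicate 3 and LPS replicates 1 and 2 held the same value, so the groups overlapped, and replicate 3 was the lowest array in both conditions. The LPS difference of -0.54 ± 0.188 (SE) had a 95% interval from -0.97 to -0.11 and an adjusted p of 0.0511 (limma). It was -0.71 without PBS replicate 3 (adjusted p = 0.0136), -0.65 without LPS replicate 2 (adjusted p = 0.0486) and -0.34 without LPS replicate 3 (adjusted p = 0.102). The difference within replicate numbers was -0.49, -0.52 and -0.62. Replicate 3 of PBS and of LPS deviated alike from their group means. With the replicate number as a block in a fit of these 6 arrays the adjusted p was 8.27e-04. The data do not pair replicates 1 and 2, so for them the block rests on the number in the labels alone. The IL-4 difference was -0.40 ± 0.188 (adjusted p = 0.274), and it was -0.57 against PBS replicates 1 and 2 and -0.06 against PBS replicate 3. LPS and IL-4 differed by -0.14 (95% interval -0.58 to 0.29).

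Inpp5d, which encodes SHIP1, an enzyme that removes a phosphate from the product of phosphoinositide 3-kinase, read 10.21, 10.26 and 10.34 with PBS, 7.80, 7.71 and 8.01 with LPS and 9.93 on all 3 IL-4 arrays. No groups overlapped, and the SD was 0.0655 with PBS and 0.156 with LPS. The LPS difference was -2.43 ± 0.0783 (SE, adjusted p = 9.76e-08, limma), so the LPS level was 18.5% of the PBS level as a ratio of geometric means. The difference within replicate numbers was -2.41, -2.55 and -2.33, so the arrays that stood apart showed it as well. Against IL-4 the LPS value was lower by -2.09 ± 0.0783 (adjusted p = 2.18e-07). The IL-4 difference of -0.34 ± 0.0783 had an adjusted p of 0.0430, and it missed the threshold in each of the 6 fits that left out 1 PBS or IL-4 array, at adjusted p from 0.0653 to 0.144. The 3 IL-4 values of Inpp5d were identical in the deposited table, as they were for 144 of the 21212 rows, or 0.679%, so their SD of 0 is not a measure of the culture's spread.

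The enzymes of phosphoinositide and diacylglycerol turnover that surround SHIP1 and phospholipase C gamma 2 had 25 of 28 listed genes measured, of which LPS lowered 10 (40%) and raised 5 (20%), with a median log2 difference of -0.15. Over all rows 22.4% were lower and 15.4% higher. Rasgrp3 and Rasgrp1, which both activate Ras in response to diacylglycerol, moved in opposite directions: Rasgrp3 fell by 3.54 ± 0.135 (SE, adjusted p = 2.67e-07) and Rasgrp1 rose by 2.59 (adjusted p = 1.68e-05). Plcb2, a phospholipase C that G proteins activate, fell by 1.499, and Inpp5b, another inositol 5-phosphatase, rose by 0.80. The remaining rises were Itpkb (0.55), Plcb3 (0.46) and Prkcd (0.39). Inpp5b and Inpp5d, which share this enzyme class, moved apart with LPS. Inpp5e (-0.93), Inppl1 (-0.37) and Inpp5f (-0.37) of the list fell as Inpp5d did, and Inpp5a (-0.06) was not called. These LPS values, too, were chosen after they were seen. With IL-4, 3 of the 25 passed: the kinase gene Prkcd (0.79) and the inositol phosphatase gene Inpp5a (0.59) rose and the diacylglycerol kinase gene Dgkz (-0.30) fell.

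Cd33, a sialic acid-binding receptor with inhibitory function in human microglia, read 10.83, 10.79 and 10.20 with PBS, 10.84, 10.92 and 10.62 with LPS and 9.98, 9.89 and 9.95 with IL-4. All IL-4 arrays lay below all others, while PBS and LPS overlapped. LPS exceeded IL-4 by 0.85 ± 0.159 (SE, adjusted p = 0.00258, limma), and with the cilia mean in the fit this became 0.28 with an adjusted p of 0.617. IL-4 against PBS gave -0.67 ± 0.159, with a 95% interval from -1.03 to -0.30 and an adjusted p of 0.0504. That value rested on PBS replicate 3: without it the difference was -0.87 with an adjusted p of 0.00151, and against that array alone it was -0.26. LPS against PBS gave 0.19 ± 0.159 (95% interval -0.18 to 0.55) and -0.01 without PBS replicate 3.

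Among 17 inhibitory and paired receptors listed beside Cd33, LPS raised 4 (23.5%) and lowered 3 (17.6%), with a median of -0.07, where 15.4% of all rows were higher and 22.4% lower. Siglece, which encodes another mouse sialic acid-binding receptor of myeloid cells, rose by 2.03 ± 0.134 (SE, adjusted p = 6.46e-06), and Pilrb1, an activating paired receptor, rose by 1.83. Cd300a, an inhibitory receptor for phospholipids, fell by 2.15 ± 0.185 (adjusted p = 3.21e-05), and Lair1, an inhibitory receptor for collagens, fell by 1.02. The remaining calls were Pilra (1.23), Cd47 (0.81), the ligand of the receptor SIRPA, and Sirpa itself (-0.29). With IL-4, Siglece rose by 0.97 and Lair1 rose by 1.02, and Cd300a (-0.99) and Siglec1 (-0.46), a sialic acid-binding adhesion receptor of macrophages, fell. Lair1 was therefore lower with LPS and higher with IL-4, and the difference between the stimuli was -2.04 ± 0.119 (adjusted p = 3.06e-06).

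Apoe, the lipid carrier, read 12.73, 12.81 and 13.04 with PBS, 12.62, 12.53 and 12.91 with LPS and 12.91, 12.95 and 12.97 with IL-4. Replicate 3 was the highest array with PBS and with LPS, and the PBS group overlapped both others. LPS against PBS was -0.18 ± 0.111 (SE, 95% interval -0.43 to 0.08, adjusted p = 0.254, limma), and IL-4 against PBS was 0.08 ± 0.111 (95% interval -0.17 to 0.33, adjusted p = 0.712). LPS lay below IL-4 on all arrays, by -0.26 ± 0.111, with an adjusted p of 0.0863. Both LPS values gained a call without LPS replicate 3: LPS against PBS was -0.29 (adjusted p = 0.0378) and LPS against IL-4 was -0.37 (adjusted p = 0.0120). With the cilia mean in the fit, both changed sign, to 0.02 against PBS and 0.22 against IL-4, and neither passed the threshold. Without PBS replicate 3, LPS against PBS was -0.08 (adjusted p = 0.591). As replicate 3 was high in both conditions, leaving out only 1 of these arrays shifts the difference from PBS. Within replicate numbers that difference was -0.11, -0.28 and -0.13. These values sat near the top of the array's range, with 0 to 36 rows of an array above Apoe and a highest value of 13.06 in the table, and how far the range limits differences of Apoe was not tested.

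Of the 19 measured genes for lipoproteins, sterol efflux and their regulators, LPS lowered 9 and raised 0 at an adjusted p under 0.05 by limma. At an unadjusted p under 0.05 the counts were 10 and 0, and by a t-test with adjustment 6 and 0. The median was -0.26. Rxra, the nuclear receptor that pairs with the sterol-sensing LXR proteins, fell by 1.93 ± 0.122 (SE, adjusted p = 5.18e-06), and Abcg1, a transporter that exports cholesterol to lipoproteins, fell by 1.07 ± 0.266 (adjusted p = 0.0122). With IL-4 limma called 0 of the 19, with 5 at an unadjusted p under 0.05 and 2 by the adjusted t-test. The share of all rows was 22.4% lower and 15.4% higher with LPS. The 95% interval of the Apoe difference for LPS against PBS over all arrays, -0.43 to 0.08, includes a fall, no change and a rise.

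Sorl1, a sorting receptor that carries the amyloid precursor protein and other cargo between endosome and Golgi, read 9.85, 9.89 and 9.92 with PBS, 9.48, 9.40 and 9.27 with LPS and 9.81, 9.67 and 9.70 with IL-4. All LPS arrays lay below all others. LPS lowered Sorl1 by -0.50 ± 0.0667 (SE, adjusted p = 4.22e-04, limma) against PBS and by -0.34 ± 0.0667 (adjusted p = 0.00325) against IL-4. IL-4 against PBS was -0.16 ± 0.0667 (95% interval -0.31 to -0.01, adjusted p = 0.224).

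Bin1, which encodes a membrane-bending protein of endocytosis, read 9.11, 9.10 and 9.74 with PBS, 8.67, 8.67 and 8.87 with LPS and 9.52, 9.60 and 9.56 with IL-4. The LPS arrays lay below all others, and PBS replicate 3 lay above the IL-4 arrays while PBS replicates 1 and 2 lay below them. LPS against PBS was -0.58 ± 0.159 (SE, adjusted p = 0.0191, limma). It was -0.37 without PBS replicate 3 and -0.35 with the cilia mean in the fit, the latter with an adjusted p of 0.184, and it also missed the threshold without LPS replicate 1 (adjusted p = 0.0636) or LPS replicate 2 (0.0596). LPS against IL-4 was -0.83 ± 0.159 (adjusted p = 0.00307), which became -0.26 (0.650) with the cilia mean. IL-4 against PBS was 0.24 ± 0.159 (adjusted p = 0.425), 0.45 without PBS replicate 3 (0.0101) and -0.09 with the cilia mean (0.854). The cilia medians were highest in PBS replicate 3 and LPS replicate 3, at 8.64 and 8.25, and Bin1 in LPS replicate 3 stayed below all PBS and IL-4 arrays.

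For endosomal sorting and endocytosis, 29 of 30 listed genes were measured, and LPS lowered 10 (34.5%, beside 22.4% of all rows) and raised 4 (13.8%, beside 15.4%), with a median of -0.08. Sort1, a sorting receptor of the same family as SORL1, fell by 0.78 ± 0.103 (SE, adjusted p = 4.11e-04), and Vps26b, a retromer subunit that binds such cargo, fell by 0.76 ± 0.0441 (adjusted p = 3.05e-06). Cd2ap, an adaptor between endocytosis and actin that is itself a risk gene, rose by 0.65, and Snx6, a sorting nexin, rose by 0.47, with Snx2 (0.47) and Rab5a (0.34) as the remaining rises. With IL-4, Snx27, a sorting nexin that works with retromer, was the 1 gene that passed, at -0.41 ± 0.0699 (adjusted p = 0.0126). Of 14 measured genes of amyloid precursor processing and clearance, LPS lowered 7 (50%, beside 22.4% of all rows) and raised 1, with a median of -0.33. The gamma secretase genes Psen2 and Aph1b fell by 0.66 and 0.62, and Adam17, an alpha secretase, rose by 0.34. Adam10, another alpha secretase of the list, was lower by -0.50. With IL-4, Psen2 fell by 0.80 ± 0.186 (adjusted p = 0.0464), and the beta secretase gene Bace1 (0.30) and Ide (0.23), which encodes an amyloid-degrading protease, rose.

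Abi3, a regulator of the actin cytoskeleton, read 8.53, 8.66 and 8.85 with PBS, 7.05, 6.86 and 6.47 with LPS and 8.31, 8.19 and 8.23 with IL-4. No groups overlapped, and every LPS array was more than 1 log2 unit below every other array. LPS lowered Abi3 by -1.88 ± 0.143 (SE, adjusted p = 1.52e-05, limma) against PBS, to 27.1% of the PBS level as a ratio of geometric means, and by -1.45 ± 0.143 (adjusted p = 6.94e-05) against IL-4. The difference from PBS within replicate numbers was -1.47, -1.80 and -2.38. IL-4 against PBS was -0.44 ± 0.143 (95% interval -0.76 to -0.11, adjusted p = 0.126).

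Of 15 measured genes of the WAVE complex and its actin partners, LPS lowered 4 (26.7%) and raised 2 (13.3%), with a median of -0.14. These shares were near those of all rows, 22.4% and 15.4%. Abi1, the paralog of Abi3 that is a core WAVE subunit, rose by 0.36 ± 0.0460 (SE, adjusted p = 3.22e-04) where Abi3 fell, and Actr3, a subunit of the actin-nucleating Arp2/3 complex, rose by 0.31. Wasf2, a WAVE protein, fell by 0.36, and Rac1, the GTPase that activates the complex, fell by 0.25, with Abi2 (-0.23) and Brk1 (-0.20) as the remaining falls. With IL-4 the 1 gene that passed was Nckap1l, the blood cell subunit of the complex, at -0.25 ± 0.0535 (adjusted p = 0.0363). The changes in this list were smaller than that of Abi3 for each gene that passed with LPS.

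Spi1, the gene of PU.1, read 11.40, 11.44 and 11.13 with PBS, 11.62, 11.62 and 11.51 with LPS and 11.46, 11.37 and 11.44 with IL-4. The LPS arrays lay above all others, and PBS and IL-4 overlapped. LPS against PBS was 0.26 ± 0.0853 (SE, adjusted p = 0.0413, limma), and the difference was 0.23, 0.18 and 0.38 within replicate numbers. The call was lost in 8 of 17 alternative analyses, among them those without PBS replicate 3 (0.16, adjusted p = 0.0713), without PBS replicate 1 (0.0522), without LPS replicate 1 (0.116) and without LPS replicate 2 (0.109). IL-4 against PBS was 0.10 ± 0.0853 (adjusted p = 0.540), and LPS against IL-4 was 0.16 (adjusted p = 0.149).

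Among 24 measured transcription factors that act beside PU.1 in myeloid cells, LPS raised 9 (37.5%, beside 15.4% of all rows) and lowered 3 (12.5%, beside 22.4%), with a median of 0.10. Ets2, a factor of the same ETS family, rose by 2.49 ± 0.0709 (SE, adjusted p = 5.12e-08), and Gfi1, a repressor of myeloid genes, rose by 1.72. Cebpa, a partner of PU.1 in myeloid differentiation, fell by 1.81 ± 0.103 (adjusted p = 2.68e-06), and Fli1, another ETS factor, fell by 1.51, with Mef2c (-1.09) as the remaining fall. With IL-4, Egr2, a zinc finger factor, rose by 1.41 ± 0.0939 (adjusted p = 1.40e-04) and the ETS gene Ets1 rose by 0.55, and Fli1 (-0.63) and Maf (-0.48), a factor of mature macrophages, fell. The remaining IL-4 calls were Ets2 (0.33) and the ETS gene Spic (-0.27). Members of the ETS family thus moved in both directions with LPS.

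**Figure D3:**
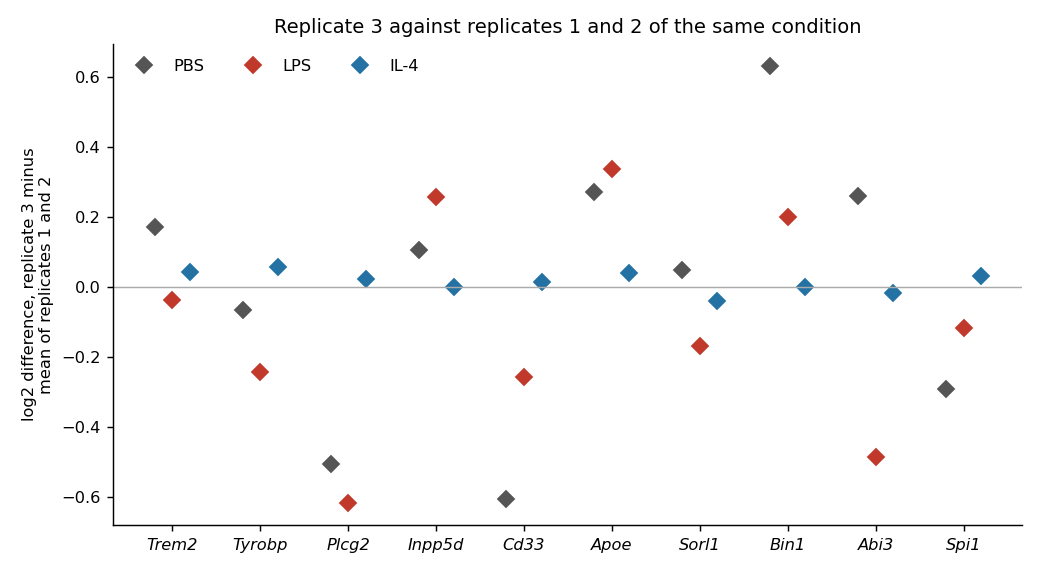
For each member, the log2 value of replicate 3 minus the mean of replicates 1 and 2 of the same condition, by condition. The IL-4 points lie close to 0, whereas PBS replicate 3 was lower for Cd33 (-0.61) and Plcg2 (-0.51) and higher for Bin1 (0.63), and LPS replicate 3 was lower for Plcg2 (-0.62) and Abi3 (-0.49).

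The members were not displaced alike on the arrays that stood apart. In PBS replicate 3, Cd33 and Plcg2 were lower by -0.61 and -0.51 than the mean of replicates 1 and 2 and Spi1 by -0.29, while Bin1 was higher by 0.63, Apoe by 0.27, Abi3 by 0.26 and Trem2 by 0.17. Tyrobp, Sorl1 and Inpp5d stayed within 0.11 of the other PBS arrays. With IL-4 the largest such distance was 0.06, in Tyrobp. The share of this displacement that goes with the cilia, oligodendrocyte and astrocyte genes of the same arrays was not tested beyond the fits with the cilia mean.

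Other genes at Alzheimer disease risk loci were compared through a list of 47 measured genes, of which LPS raised 16 (34.0%, beside 15.4% of all rows) and lowered 9 (19.1%, beside 22.4%), with a median of 0.04. Scimp, an adaptor of antigen-presenting cells, rose by 2.18 ± 0.325 (SE, adjusted p = 8.28e-04), and Icam1, an adhesion molecule for leukocytes, rose by 2.09. Tspan14, a tetraspanin that guides ADAM10 to the cell surface, fell by 1.43 ± 0.0668 (adjusted p = 8.20e-07), and Mef2c, a transcription factor of the microglial identity programme, fell by 1.09. With IL-4, 4 of the 47 passed: Ms4a6b, of the MS4A membrane protein family, fell by 1.33 ± 0.218 (adjusted p = 0.0113), Psen2 and the related Ms4a6c (-0.61) also fell, and Cass4, a scaffold of focal adhesions, rose by 0.24. LPS and IL-4 differed by 2.53 ± 0.218 for Ms4a6b (adjusted p = 3.16e-05).

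The genes of the microglial state described around amyloid plaques, in which TREM2, TYROBP and APOE take part, were examined without the members. Of 26 measured genes, LPS raised 4 and lowered 7 (median -0.22), which is 15.4% and 26.9% of the list and near the 15.4% and 22.4% of all rows. IL-4 raised 5 (19.2%, beside 3.35% of all rows) and lowered 1 (median -0.05). Ch25h, which makes 25-hydroxycholesterol, rose by 3.91 ± 0.121 with LPS (SE, adjusted p = 8.31e-08) and by 1.28 with IL-4, and Cst7, a protease inhibitor, rose by 1.94 and 1.80. The remaining rises were Csf1 (1.02) and Axl (0.22) with LPS, and Itgax (0.72), Clec7a (0.63) and Csf1 (0.58) with IL-4. Fabp5, a fatty acid carrier, and Ank, a transporter of pyrophosphate, fell by 1.10 and 0.61 with LPS, and Cd63, a tetraspanin of lysosomes, fell by 0.30 with IL-4. Itgax, an integrin subunit often used to mark that state, was -1.03 lower with LPS than with IL-4 (SE 0.129, adjusted p = 2.89e-04).

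**Figure D4:**
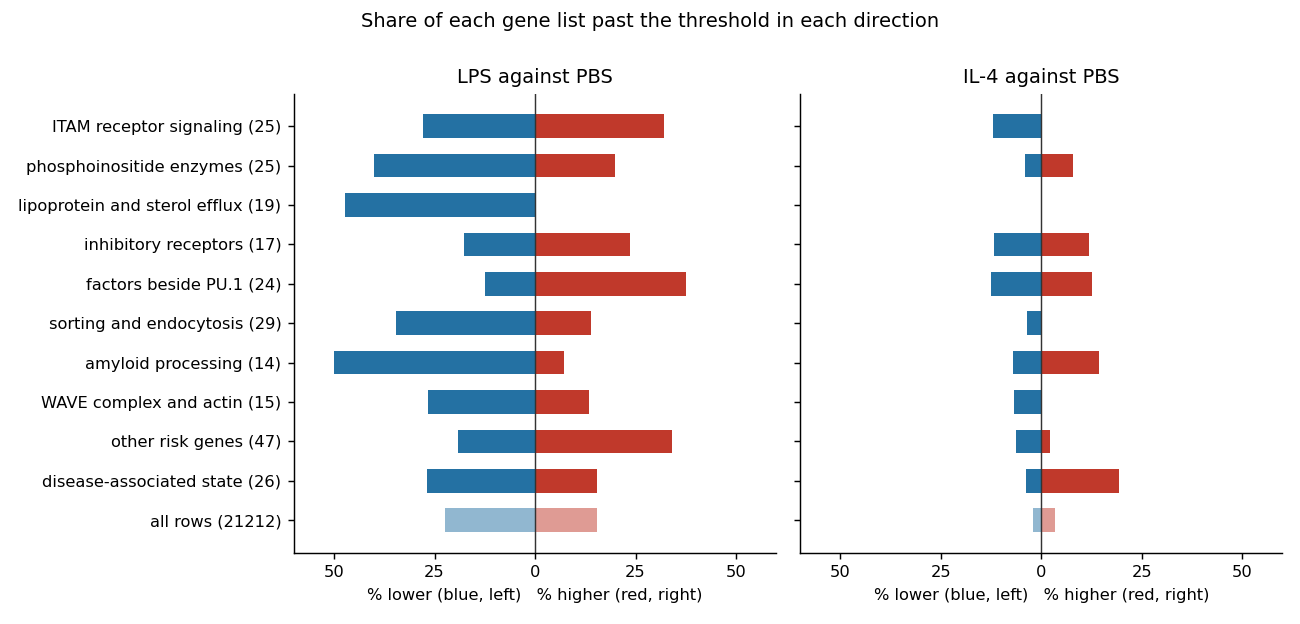
Percentage of the measured genes of each list that passed an adjusted p under 0.05 (limma), lower to the left and higher to the right, for LPS and IL-4 against PBS. Numbers in brackets are measured genes and the pale bars are all 21212 rows, dim rows included. With LPS the lipid list has 9 of 19 genes lower and 0 higher, and the PU.1 partner list has 3 of 24 lower and 9 higher. With IL-4 the longest bar is that of the 5 of 26 disease-associated genes that were higher, of which count 2 remained by the adjusted t-test.

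The genes whose values followed each member most closely over the 9 arrays are given as a description of the pattern, by Pearson r of the log2 values. For Inpp5d these were 2510002D24Rik (0.998), Gpr146 (0.998) and Ypel3 (0.997), and for Abi3 they were Traf3ip3 (0.995), Cdk20 (0.994) and Nat8l (0.993). Trem2 was followed by Rcbtb2 (0.994), Aldh9a1 (0.988) and Zfp467 (0.985), and Tyrobp by Klhl38 (0.985), Nop53 (0.985) and Ctsb (0.978). Among members, Abi3 was the second closest gene to Sorl1 (0.985), after Zbtb4 (0.986) and before Ip6k1 (0.984). Each of these patterns has a low LPS group. Of the other members, Cd33 was followed most closely by Ncf1 (0.995), Plcg2 by Was (0.997), Bin1 by Ankrd40 (0.990), Spi1 by Ass1 (0.986) and Apoe by Lrrc34 (0.994). The arrays share 3 conditions and the displacements of replicate 3, so high values of r are common and carry no test.

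**Figure D5:**
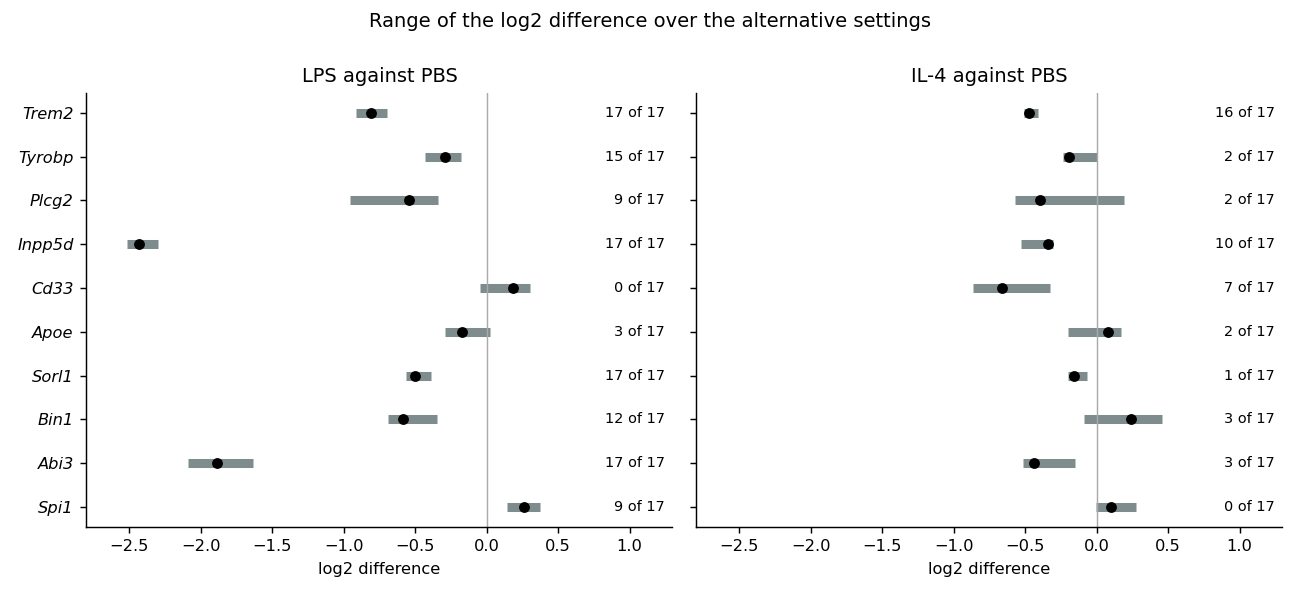
Log2 difference of each member as reported (black point) and its range over 17 alternative analyses (grey bar), for LPS and IL-4 against PBS. The number at the right of each line counts the alternatives with an adjusted p under 0.05. With LPS, Trem2, Inpp5d, Abi3 and Sorl1 were called in 17 of 17, and with IL-4 the bars of Tyrobp, Plcg2, Apoe, Bin1 and Spi1 reach across 0.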

How the data were processed

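RNA was hybridised to Affymetrix Mouse Exon 1.0 ST arrays, and the authors deposited log2 values that RMA in the affy package made, per the labels (versions not stated), in 1 table of 21212 rows by 9 arrays. RMA corrects background, equalises the arrays and summarises probes, so a row is an average over a gene's exons. In 31.3% of rows at least 2 arrays held an identical value. Symbols came from the platform annotation and RefSeq (18786 rows with 1 symbol).

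The members and the gene lists were chosen with earlier results of these data known. All rows were fitted with limma 3.58.1 in R 4.3.3 (1 mean per condition, 9 arrays, eBayes; residual df 6, prior df 2.38) with Benjamini-Hochberg adjustment over all rows and a threshold of 0.05. In simulated data based on LPS against PBS, 62% of genes changed by 0.5 and 83% of genes changed by 1 (log2) were called among 21212 genes, with 9 of 21012 unchanged genes. The simulated noise was independent for each gene and array, without the displacement that replicate 3 arrays share, and few rows were changed. These figures therefore do not give the recovery or the false calls of the real data. Named genes were every member, of each list the 2 largest called rises and falls in a comparison, and the 3 rows most like each member by Pearson r.

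Deviations of same-numbered PBS and LPS arrays from their group means correlated at 0.58, 0.65 and 0.80. Unlike numbers gave 0.60 for LPS 2 with PBS 1 and 0.54 for LPS 1 with PBS 2. LPS replicate 3 gave -0.71 with PBS 1 and -0.72 with PBS 2. The data thus set replicate 3 apart but do not pair replicates 1 and 2, and the labels give only the number. For IL-4 and PBS the same-number values were 0.34, -0.25 and 0.08. Promoters came from RefSeq tables of GRCm38.p6. The microRNA arrays of the study were not used here. Alternatives covered 6 arrays per comparison, the methods' t-test, trended and robust variances, array weights, quantile normalization, subtraction of array medians, omission of the dimmest rows (7070), the replicate block, omission of arrays and a cilia covariate.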

Additional observations from a re-analysis of the deposited data

How the results depend on the processing

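Over 510 recomputed values (30 member differences under 17 alternatives each), 428 kept their direction and their side of the threshold. For LPS against PBS, Trem2, Inpp5d, Abi3 and Sorl1 were called in all 17 alternatives, Tyrobp in 15, Bin1 in 12 and Spi1 in 9, and Plcg2 gained a call in 9. The count of members called was 7 and became 4 with the methods' t-test, for which fewer degrees of freedom are available. For IL-4 against PBS the count was 2 and became 9 with array weights and 8 without replicate 3 of LPS and PBS. It ranged from 1 to 3 when 1 array was left out, with 3 without PBS replicate 3 and 1 without any other array of the comparison. With the replicate block on the 6 arrays, limma called 0 with IL-4 (6 at an unadjusted p under 0.05), although these numbers do not pair IL-4 with PBS. For LPS and PBS, the data set replicate 3 apart but do not pair replicates 1 and 2. There the block raised the count from 7 to 8 by adding Plcg2 and changed no other call of a member.

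The 15 changes of sign concerned differences that were not past the threshold before or after, and the cause was not tested. With the cilia mean as covariate, LPS against PBS became 0.0203 for Apoe and -0.0485 for Cd33, IL-4 against PBS became 0.0032 for Tyrobp, -0.199 for Apoe, -0.0905 for Bin1 and 0.191 for Plcg2, and LPS against IL-4 became 0.220 for Apoe and -0.133 for Spi1. Without PBS replicate 3, Cd33 was -0.0147 for LPS against PBS, in a range of -0.0147 to 0.298 over the fits without 1 array. With array weights, Spi1 was -0.0044 for IL-4 against PBS and Plcg2 0.0145 for LPS against IL-4. With array medians subtracted, LPS against IL-4 was 0.0567 for Tyrobp and 0.0091 for Plcg2. Plcg2 was 0.0614 without replicate 3 of LPS, with or without PBS replicate 3, and its range over the fits without 1 array was -0.247 to 0.0614. Subtraction of array medians moved the median of all rows for LPS against PBS from 0.01 to 0.12 and the split of calls from 3266 higher and 4748 lower to 5872 and 3323. For IL-4 the split moved from 711 and 435 to 459 and 454, and for LPS against IL-4 from 4458 and 5495 to 9567 and 3697. Over all rows the LPS split against PBS was 2253 and 3050 with the methods' t-test, and against IL-4 it was 1633 and 2842 with the cilia covariate. For IL-4 against PBS the split was 173 and 114 with the block, 434 and 282 with the t-test, 4136 and 4159 with array weights, 3518 and 2871 without replicate 3 of LPS and PBS, and 333 and 188 with the cilia covariate. Without 1 array it ran from 281 and 185 (IL-4 replicate 2) to 1067 and 966 (PBS replicate 3).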
